A study of Mus musculus with 9 samples.

Results

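The genes described here encode the subunits of the glutamate receptors and of the GABA-A receptor. They were taken by symbol from the mouse gene list: Gria1 to Gria4 (AMPA subunits, 4 genes), Grik1 to Grik5 (kainate subunits, 5 genes), the Grin1, Grin2 and Grin3 genes (NMDA subunits, 7 genes), the Grm genes (metabotropic glutamate receptors, 8 genes) and every Gabr gene of the GABA-A receptor (19 genes). This gave 43 genes of the 32285 mouse genes counted. Droplet 5′ single-cell RNA-seq had been run on 5 brains with an EP ZFTA-RELA tumor (genotype NestinCreERT2;Fus1) and on 4 control brains (genotype NestinCreERT2;TdT), 1 mouse per library, all aged 6 to 8 weeks. EP ZFTA-RELA is a mouse ependymoma in which Nestin-driven CreERT2 switches on a ZFTA-RELA fusion gene in embryonic radial glia, so both groups carried the Cre allele and the tumor mice alone carried the fusion, with an IRES and luciferase (Luc) behind it. All brains were cut up, dissociated, passed through Percoll and sorted after staining for dead cells and red cells, so the classes below are the cells that survived these steps.

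Fast excitation in the brain runs through AMPA, kainate and NMDA receptors, which are ion channels built from 4 subunits, whereas metabotropic glutamate receptors signal through G proteins. The GABA-A receptor is a chloride channel of 5 subunits that carries most fast inhibition in the mature brain. Neurons make all of these families; oligodendrocyte precursor cells (OPCs) also carry AMPA and NMDA receptors and receive synapses from neurons, and astrocytes make some members, such as Grm3 and Grin2c. In the developing brain both transmitters act on radial glia and other precursors before synapses form, which is why the subunits were followed in tumor cells and precursors as well as in neurons.

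After filtering, 19568 control cells and 15745 tumor-brain cells remained, with a median of 2057 to 4194 unique molecular identifiers (UMIs, 1 per captured RNA molecule) per control cell and 2068 to 6524.5 per tumor-brain cell. Classes were gated by marker genes. The neuron gate decided only where no other gate was passed or where a precursor gate led with a smaller marker share. Cells led by another gate, such as that of astrocytes or microglia, stayed there however many neuron markers they had. Neurons numbered 17725 in the controls and 1586 in the tumor brains, where the 5 mice gave 908, 233, 272, 8 and 165. Tumor replicate 4, with 8 neurons, therefore entered no test of levels in neurons, but its neurons gave 1 of the UMI shares described last. Cells of the tumor mice with a UMI of Luc, IRES or the fusion were called tumor cells, whatever their markers; there were 83, 987, 99, 3801 and 1237 of them, 6207 in all, and 3390 also passed the radial glia gate. In mouse 1, 19 of the 83 (22.9%) passed the neuron gate and 15 (18.1%) the astrocyte gate, whereas 0.421% to 7.40% of the tumor cells of the other mice passed the neuron gate. A single UMI was enough, and whether free transgene RNA added cells was not tested directly. The comparison of tumor cells was therefore also run in 2 other ways, one with at least 2 transgene UMIs (which left mouse 1 with 9 tumor cells and so out of that test) and one without the cells gated as neurons or as oligodendrocytes, ependymal, choroid plexus, immune, blood, vascular or fibroblast cells. No fusion or Luc UMI was found among the kept control cells, and 12 IRES UMIs were. Precursors were cells without a transgene UMI that passed the gate for OPCs, neuroblasts, cycling cells or radial glia, 3144 in the tumor brains and 62 in the controls, and OPCs alone numbered 393 and 25. Luc had only 13.9 to 285 CPM over all cells of a tumor mouse, so a cell without a transgene UMI may still carry the fusion. How many of the precursors and OPCs of the tumor brains were such cells was not tested. Levels are given as counts per 1000000 UMIs of the class (CPM) in each mouse. Because free RNA enters droplets, the levels that the results turn on are set beside those in microglia, which should lack most of these receptors, and in the 3000 emptiest barcodes deposited for each mouse. These stand for free RNA below, but with medians of 559 to 1338 UMIs they may also hold damaged cells. In tumor mouse 3 all 9001 barcodes were also considered as cells, so its emptiest barcodes come from the same set. How many of them were kept as cells was not counted. The sum of 10 general neuron markers in those barcodes ran from 6177 to 6737 CPM in the controls and from 416 to 3937 CPM in the tumor mice. The neuron gate asked for 4 of these 10 markers and for no excess over free RNA. Free RNA could therefore carry more cells past it in the controls than in the tumor mice. How many cells it added to the neurons of either group was not tested. The gates of OPCs, neuroblasts, cycling cells and radial glia asked for 3 markers and likewise for no excess over free RNA. How many precursors or OPCs free RNA added was not tested either. Differences are log2 fold changes ± SE from edgeR's quasi-likelihood test over all genes, with Benjamini-Hochberg adjusted p-values and a threshold of 0.05.

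The promoters of Grin2d, Gria2 and Grin1 are shown because these genes took the 3 courses seen below. Grin2d was higher in tumor cells than in neurons. Gria2 was lower in tumor cells than in neurons but more than 2 times the microglial level in every mouse. Grin1, the subunit every NMDA receptor needs, was lower than in neurons by a wide margin. It was above microglia in all 5 mice but more than 2 times above in only 3. Each line gives the 250 bases before the RefSeq start in GRCm38.p6, 5′ to 3′ on the gene's strand, with each CG dinucleotide in capitals. The windows are chr7:45866682-45866931 for Grin2d, chr3:80802836-80803085 for Gria2 and chr2:25319188-25319437 for Grin1, all on the minus strand. The Grin2d start lies inside a longer gene model that reaches 45878378 on chromosome 7.
Grin2d: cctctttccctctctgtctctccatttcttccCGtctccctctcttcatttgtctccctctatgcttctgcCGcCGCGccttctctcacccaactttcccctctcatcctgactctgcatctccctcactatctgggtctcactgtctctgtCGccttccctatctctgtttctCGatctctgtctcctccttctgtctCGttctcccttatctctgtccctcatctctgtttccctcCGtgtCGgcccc
Gria2: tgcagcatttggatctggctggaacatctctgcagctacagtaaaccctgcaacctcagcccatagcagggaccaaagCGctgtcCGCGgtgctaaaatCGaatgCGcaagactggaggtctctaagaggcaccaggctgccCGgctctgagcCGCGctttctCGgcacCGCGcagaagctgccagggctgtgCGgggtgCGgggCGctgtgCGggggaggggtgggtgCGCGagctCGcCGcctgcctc
Grin1: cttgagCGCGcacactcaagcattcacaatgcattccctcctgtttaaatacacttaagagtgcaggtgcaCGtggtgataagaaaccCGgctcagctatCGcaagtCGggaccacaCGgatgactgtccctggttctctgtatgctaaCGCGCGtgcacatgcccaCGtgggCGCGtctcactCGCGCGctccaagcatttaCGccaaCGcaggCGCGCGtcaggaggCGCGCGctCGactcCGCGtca
The 3 windows hold 9, 19 and 27 CG dinucleotides. Over 30 of the 43 genes that had an entry, the median was 8, and over all 32851 promoter windows it was 6; 91.4% of all windows had fewer than Grin1's and 59.7% fewer than Grin2d's. These counts describe the letters only, since methylation and factor binding were not measured.

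Across cell classes the subunits formed one broad picture, drawn in the heat map of levels by class and mouse. Family sums were compared among neurons, astrocytes, OPCs, precursors, tumor cells and microglia, where a mouse had at least 20 cells of the class. Among these, in the 4 tumor mice with at least 20 neurons, the summed CPM of each of the 5 families was highest in neurons. In the controls the same held except for the GABA-A genes, whose sum in astrocytes slightly passed that in neurons in 3 of 4 mice. The GABA-A sums of both classes were of like level to the free RNA of the controls, at 1028 to 1126.5 CPM. Neurons of control mice 1 and 2 lay below it. In control neurons the 4 AMPA genes summed to 3278 to 3951 CPM, the 7 NMDA genes to 1221 to 1333 CPM and the 19 GABA-A genes to 1047 to 1119 CPM. In tumor cells the AMPA genes summed to 479 to 986 CPM, the NMDA genes to 95.3 to 316 CPM and the GABA-A genes to 67.6 to 313 CPM. Microglia of the same tumor mice had 72.0 to 272 CPM for AMPA, 16.6 to 144 CPM for NMDA and 21.2 to 207 CPM for GABA-A genes. Within each tumor mouse the tumor cells were above the microglia in all 3 families. Control microglia had 1018 to 1190 CPM of AMPA RNA, more than the microglia of any tumor mouse. In the emptiest barcodes the AMPA genes summed to 1082 to 1187 CPM in controls and 509 to 1018 CPM in tumor mice. Only in mouse 1 were the tumor cells above this free RNA, at 986 against 916 CPM. For the NMDA genes the free RNA of the tumor mice held 131 to 714 CPM, and for the GABA-A genes 134 to 778 CPM. For both families it was above the tumor cells of the same mouse in every mouse.

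**Figure D1:**
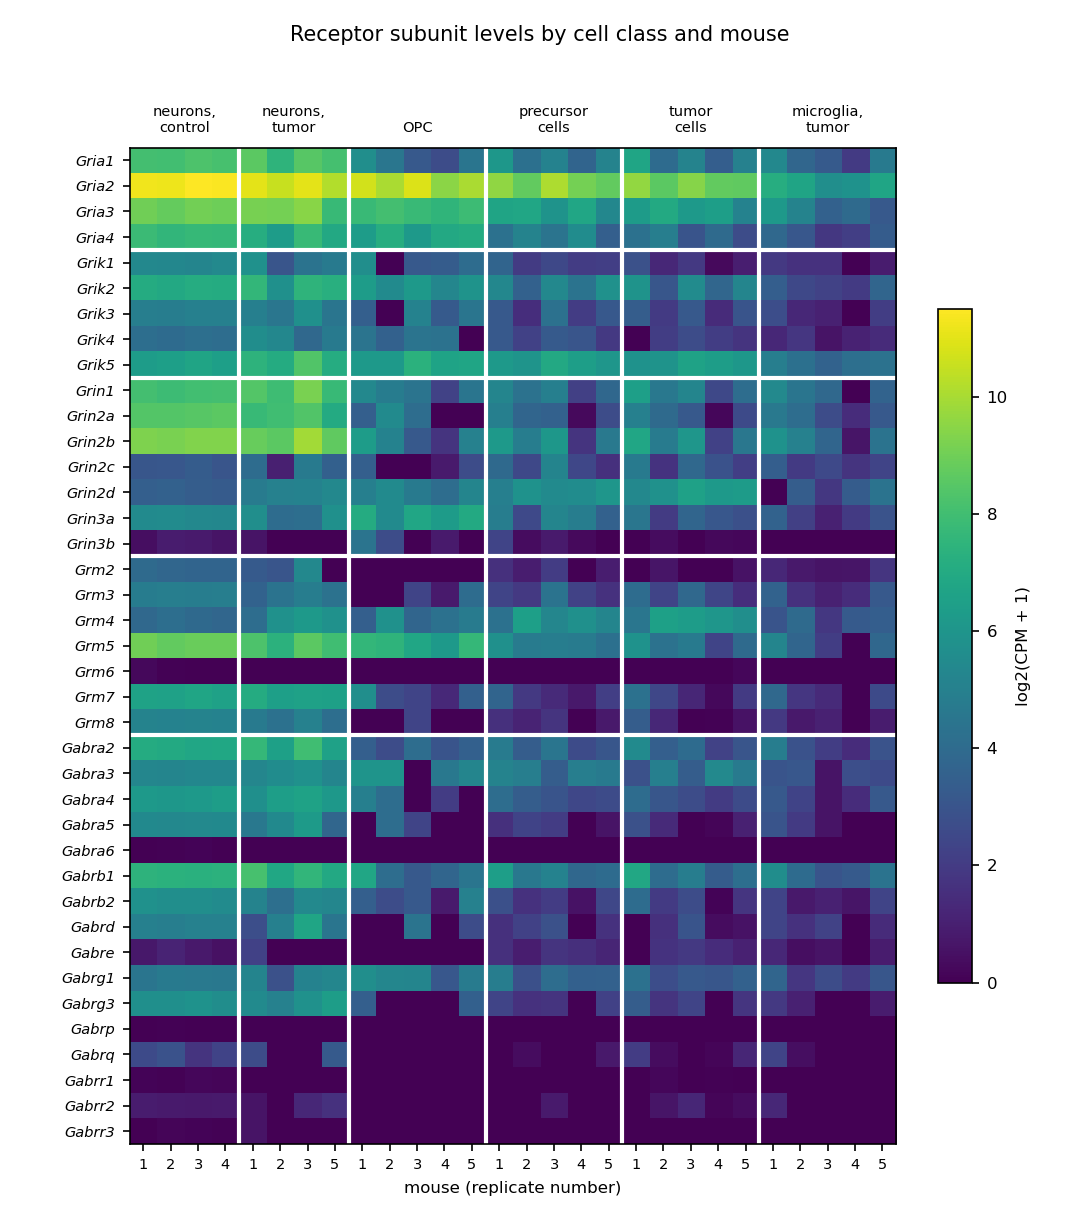
Levels of the receptor subunit genes in each cell class (column groups) of each mouse (columns, by replicate number), as log2(CPM + 1) by color. Most rows are brightest in neurons, with exceptions such as Grin2d in tumor cells and Grin3a in OPCs, and Gria2 has a level of 387 to 783 CPM in tumor cells and of 718 to 1888 CPM in OPCs of the tumor mice.

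Tumor cells had less RNA than neurons of the same 4 tumor mice for nearly every subunit that could be tested. Of the 43 genes, 31 passed the filter on low counts; 28 were lower in tumor cells, 1 was higher and 2 did not pass the threshold. Both alternative definitions of tumor cells gave 27 lower and 1 higher of 30. Over all 10077 genes tested, 27.7% were lower and 27.2% higher. The median log2 fold change was -2.80 over the 31 subunits and -0.02 over all genes. The filter kept a gene with enough counts in either class alone, so subunits high in neurons entered even where tumor cells had few. Grik3, Grm8, Gabrg3, Gabra5 and Grik4 had at most 5.46 to 9.39 CPM in the tumor cells of any mouse. Such genes could hardly be called higher, so the counts and the median lean towards lower. The same filter was used for precursors and OPCs below. The lower genes included all 4 AMPA subunits, the 4 kainate subunits tested, 4 NMDA subunits, 5 metabotropic receptors and all 11 GABA-A subunits tested.

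Grm7, Gabra5 and Grin2a differed by about 4 log2 units. Grm7, a presynaptic metabotropic receptor, had a mean of 6.89 CPM in tumor cells against 101 CPM in neurons (-4.18 ± 0.36, adjusted p = 3.59e-05). The tumor cells of mouse 1 had 18.8 CPM of Grm7, and 3.98 CPM without those gated as neurons or other classes. Gabra5, the α5 subunit found largely in hippocampal neurons outside synapses, had 2.23 against 38.5 CPM (-4.14 ± 0.55, adjusted p = 0.000201). Grin2a, the NMDA subunit that rises as synapses mature, had 31.3, 14.6, 8.19, 0.135 and 4.94 CPM in the tumor cells of mice 1 to 5. In neurons of mice 1, 2, 3 and 5 the Grin2a levels were 211, 247, 333 and 130 CPM, all above every tumor cell value (-4.03 ± 0.35, adjusted p = 3.59e-05). Microglia had 23.8, 16, 5.38, 1.72 and 8.21 CPM of Grin2a, so tumor cells were above the microglia of their own mouse in mice 1 and 3 and below them in the other 3. Without the tumor cells gated as neurons or the other classes left out in the alternative above, Grin2a was at 3.98, 11.5, 0, 0.105 and 4.31 CPM, below the microglia in every mouse. Gabrg3 and Grm8 were lower by -3.85 and -3.65. Grin2b and Grin1 were lower by -3.36 ± 0.34 and -3.10 ± 0.31.

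The AMPA genes Gria4, Gria1 and Gria3 were lower in tumor cells by -3.03, -2.80 and -2.53, whereas Gria2, the subunit that keeps calcium out of the channel when its RNA is edited, was lower by a smaller amount. Gria2 had 783, 387, 683, 425 and 409 CPM in the tumor cells of mice 1 to 5 and 2063, 1457, 2108 and 1139 CPM in the neurons of mice 1, 2, 3 and 5 (-1.41 ± 0.18, adjusted p = 0.000148). The tumor cell values did not overlap the neuron values and were also above the 144, 104, 50.0, 56.8 and 108 CPM in microglia of the same mice. The emptiest barcodes held 547, 540, 651, 711 and 363 CPM of Gria2, more than the tumor cells in mice 2 and 4, so the Gria2 RNA of tumor cells and the free RNA of the same brains were of like level. What share of the tumor cell signal came from free RNA was not tested.

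Kainate subunits were lower in tumor cells by -3.08 for Grik4, -2.09 for Grik3, -1.95 for Grik2 and -1.18 for Grik5. Grik5, which joins other kainate subunits to form high-affinity channels, had 56.4, 59.7, 98.3, 83.9 and 65.9 CPM in tumor cells of mice 1 to 5, against 170, 132, 330 and 139 CPM in neurons of mice 1, 2, 3 and 5 (adjusted p = 0.00143). Microglia had 11.3 to 29.4 CPM of Grik5, and the free RNA, at 79.1 to 214 CPM, was above the tumor cells in each mouse. Among the GABA-A genes, Gabra3, an α subunit known from early brain development, had 6.26, 29.7, 9.56, 41.1 and 25.2 CPM in tumor cells of mice 1 to 5 and 37.9, 46.7, 54.5 and 36.3 CPM in neurons of mice 1, 2, 3 and 5. Microglia had 0.538 to 7.82 CPM of Gabra3, and tumor cells of mouse 1 lay below their own microglia at 7.0 CPM. The free RNA held 21.4 to 51.4 CPM of Gabra3 and 50.0 to 192 CPM of Gabrb1, for both genes more than the tumor cells of the same mouse in 5 of 5 mice. Gabrb1 had 119, 15.6, 28.7, 9.11 and 16.7 CPM in tumor cells, against 49.0, 15.3, 6.99, 8.6 and 19.7 CPM in microglia and 113 to 279 CPM in neurons of the 4 mice tested (-2.23 ± 0.29, adjusted p = 0.000158). Gabrg1 and Gabra3 had the smallest GABA-A differences, -1.09 ± 0.37 (adjusted p = 0.0298) and -1.0 ± 0.37 (adjusted p = 0.0433). With Grm3 (-1.52, adjusted p = 0.0311), they were the only 3 of the 29 calls lost under at least 1 of the alternatives run.

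Grin2d, the NMDA subunit typical of the embryonic brain and of interneurons, went the other way. Its level in tumor cells was 40.7, 56.1, 95.6, 72.7 and 78.9 CPM in mice 1 to 5, against 26.7, 32.2, 33.5 and 40.5 CPM in neurons of mice 1, 2, 3 and 5. Every tumor cell value lay above every neuron value, and the difference was 1.18 ± 0.23 (higher in 4 of 4 mice, adjusted p = 0.00173). Microglia had 0, 9.60, 2.69, 9.18 and 19.7 CPM, below the tumor cells in each mouse. The emptiest barcodes held 14.3, 47.8, 38.6, 75.0 and 42.0 CPM, so only in mouse 4 was the free RNA at or above the tumor cells. The call was kept in all 13 alternatives run, with log2 fold changes between 1.05 and 1.35.

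Grm4, a presynaptic metabotropic receptor best known from cerebellar granule cells, had 21.9, 92.9, 80.6, 65.9 and 50.9 CPM in tumor cells and 16, 56.1, 74.1 and 55.5 CPM in neurons of mice 1, 2, 3 and 5. Tumor cells were higher in 3 of these 4 mice, and the difference of 0.50 ± 0.23 did not pass (adjusted p = 0.0941). Tumor cells were above microglia in every mouse, where Grm4 had 2.69 to 14.9 CPM. Grin2c, the other subunit without a call, had a mean of 11.1 against 13.1 CPM (-0.17 ± 0.50, adjusted p = 0.792).

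**Figure D2:**
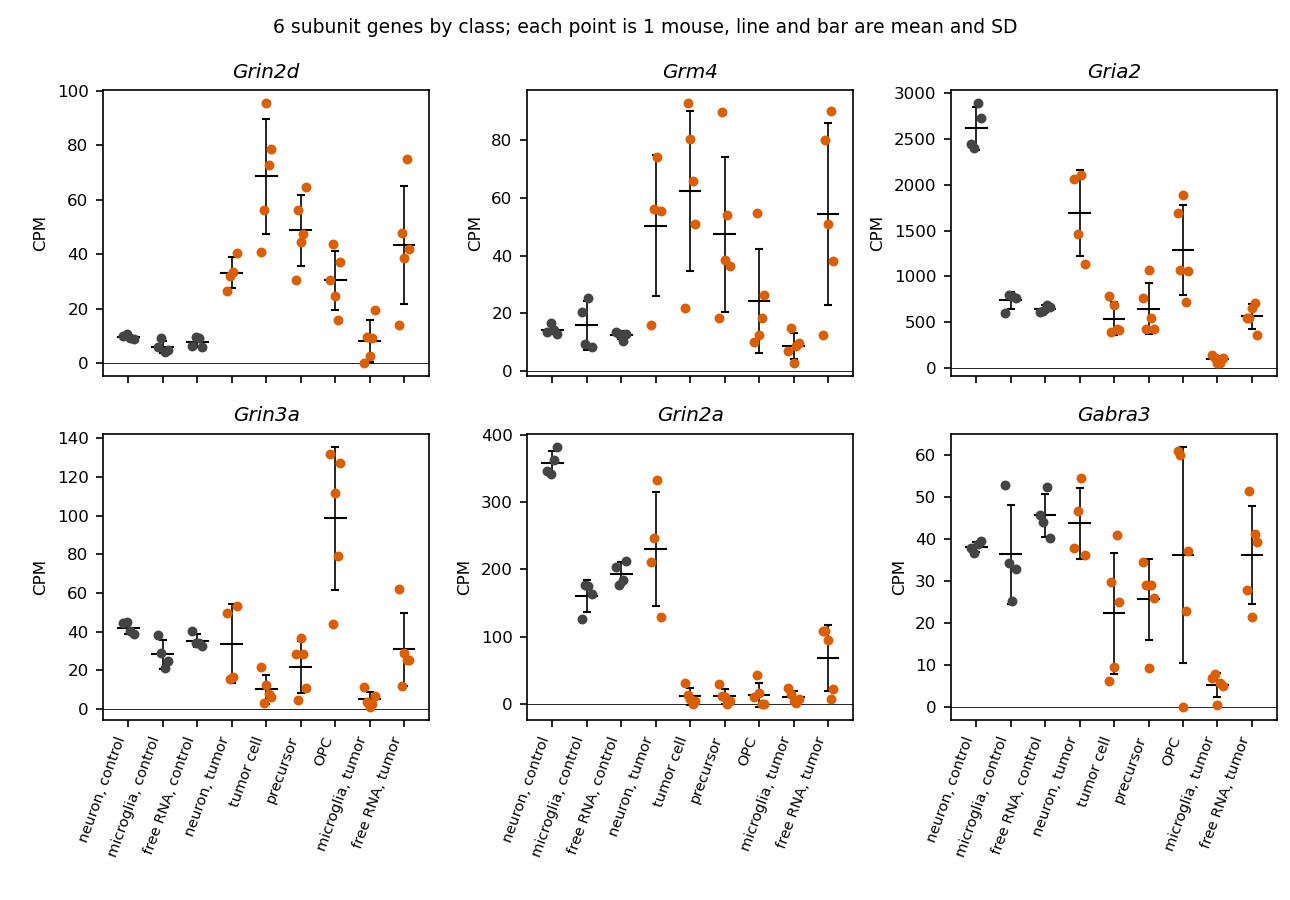
CPM of 6 subunit genes by cell class, with 1 point per mouse and the mean and SD as line and bar. Grin2d is 40.7 to 95.6 CPM in tumor cells and 8.89 to 10.8 CPM in control neurons, whereas Gria2 is highest in neurons of both groups.

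Set against microglia of the same 5 mice, 12 of the 43 genes were above the microglial level in the tumor cells of every mouse: Gria1, Gria2, Gria3, Grik2, Grik3, Grik5, Grin1, Grin2d, Grm4, Grm5, Gabra2 and Gabrg1. Only Gria2, Grin2d and Grm4 were more than 2 times the microglial level in every mouse. Without the tumor cells gated as neurons or the other classes left out above, 8 genes were above microglia in every mouse, since Gria1, Gria3, Grin1 and Gabrg1 no longer were, and Grik3 joined Gria2, Grin2d and Grm4 above 2 times. Under both definitions none of the 43 was above the free RNA in every mouse. These are descriptions of levels and carry no test. The same counts were not made over all genes, here or for the precursors and OPCs below. The counts therefore do not set the subunits apart from other genes.

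The other genes of glutamate and GABA transmission were counted beside the subunits. Of 54 related genes, 48 were tested in tumor cells against neurons, 32 were lower and 4 were higher. The 5 lower with the smallest p-values included Kctd16, a GABA-B receptor partner (-4.47 ± 0.27), Neto1, a kainate receptor partner (-3.63 ± 0.29), and Slc12a5, the neuronal chloride exporter KCC2 (-3.11 ± 0.25). The 4 higher were Slc1a3, the glial glutamate transporter (1.46 ± 0.22), Slc6a11, the GABA transporter GAT3 (1.36 ± 0.20), Homer3, a scaffold protein (1.88 ± 0.36), and Gabarap, a trafficking protein (1.11 ± 0.23). Of these, Slc1a3 and Slc6a11 clear transmitter in glia.

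Precursors without a transgene UMI were compared with the same neurons, so this comparison and the one of OPCs share them with that of the tumor cells. Of 32 subunits tested against neurons in 4 mice, 26 were lower, 1 was higher and 5 did not pass; over 10781 genes, 25.1% were lower and 25.7% higher. The median was -2.52 over the subunits and -0.01 over all genes. Grm7 again had the largest difference, 4.98 against 101 CPM (-4.48 ± 0.34, adjusted p = 6.22e-06), followed by Gabrg3 (-4.00) and Grin2a (-4.00). Grin1 was lower by -3.63 ± 0.25 and Gria2 by -1.22 ± 0.19 (adjusted p = 0.000302). All 4 AMPA and all 5 kainate genes were lower.

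The precursor levels of Grin2d were 30.5, 56.5, 44.6, 47.6 and 64.8 CPM in mice 1 to 5. Each of the 4 mice tested was above its own neurons (0.74 ± 0.25, adjusted p = 0.0262), but the call was lost in 5 of the 10 alternatives. Genes without a call in precursors were Grm4 (0.02 ± 0.31, adjusted p = 0.967), Grin2c (0.16 ± 0.52, adjusted p = 0.815), Gabra3 (-0.69 ± 0.35, adjusted p = 0.122), Gabrg1 (-0.70 ± 0.35, adjusted p = 0.110) and Grin3a (-0.75 ± 0.45, adjusted p = 0.184). A total of 16 genes were above microglia in all 5 mice, and Gria2, Grik5, Grin2d, Grik2, Grm4 and Gabra3 were more than 2 times above. Of the related genes, 30 of 49 were lower and 5 were higher, among them Cacng4, an AMPA receptor partner known from glial precursors (1.36 ± 0.35, adjusted p = 0.00686).

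In OPCs, 2 of the 4 AMPA genes did not pass the test against neurons and 1 NMDA subunit was higher. Of 25 subunits tested, 17 were lower than in neurons, 1 was higher and 7 did not pass; of 6858 genes, 22.6% were lower and 19.1% higher. The median was -2.04 over the subunits and -0.09 over all genes. Gria2 had 1696, 1067, 1888, 718 and 1054 CPM in OPCs of mice 1 to 5, which overlapped the neuron values (-0.27 ± 0.20, adjusted p = 0.289). Gria4 had a mean of 107 against 140 CPM (-0.35 ± 0.34, adjusted p = 0.430), and Gria3 and Gria1 were lower by -1.0 ± 0.29 and -3.74 ± 0.38, and the Gria3 call was lost in 4 of 10 alternatives (adjusted p up to 0.117). Grm5, the metabotropic receptor coupled to calcium release, had a mean of 170 against 280 CPM and did not pass (-0.71 ± 0.30, adjusted p = 0.0635).

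Grin3a, an NMDA subunit known for lowering calcium flow through the channel, was the subunit higher in OPCs. Its levels were 132, 43.8, 112, 79.0 and 127 CPM in OPCs of mice 1 to 5 and 49.7, 15.6, 16.8 and 53.3 CPM in neurons of mice 1, 2, 3 and 5 (1.67 ± 0.33, higher in 4 of 4 mice, adjusted p = 0.000603). Tumor cells had 3.03 to 21.9 CPM of Grin3a, microglia 1.08 to 11.2 CPM and the emptiest barcodes 11.9 to 62.2 CPM. The OPC value was above all of these within every mouse, and the call was kept in each of the 10 alternatives (1.35 to 2.02). The NMDA subunits Grin1, Grin2a and Grin2b, by contrast, were lower in OPCs by -3.70, -3.74 and -4.01. GABA-A genes were lower for 8 of 10 tested, with the Gabrb2 call kept in only 1 of 8 alternatives (adjusted p up to 0.247). Among the other lower genes Grik5 was lost in 5 of 10.

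In OPCs, 14 genes were above microglia in every mouse and 9 were more than 2 times above: Gria2, Gria3, Gria4, Grin3a, Grik2, Grik5, Grm5, Grm7 and Gabrg1. Gria2, Gria3, Gria4, Grin3a, Grik2 and Grm5 were also above the free RNA in every mouse, which no gene was in tumor cells or in precursors as a whole. Cacng4 had 421 CPM in OPCs against 29.1 CPM in neurons (3.94 ± 0.30, adjusted p = 1.24e-08). Of 43 related genes tested there, 22 were lower and 6 higher.

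**Figure D3:**
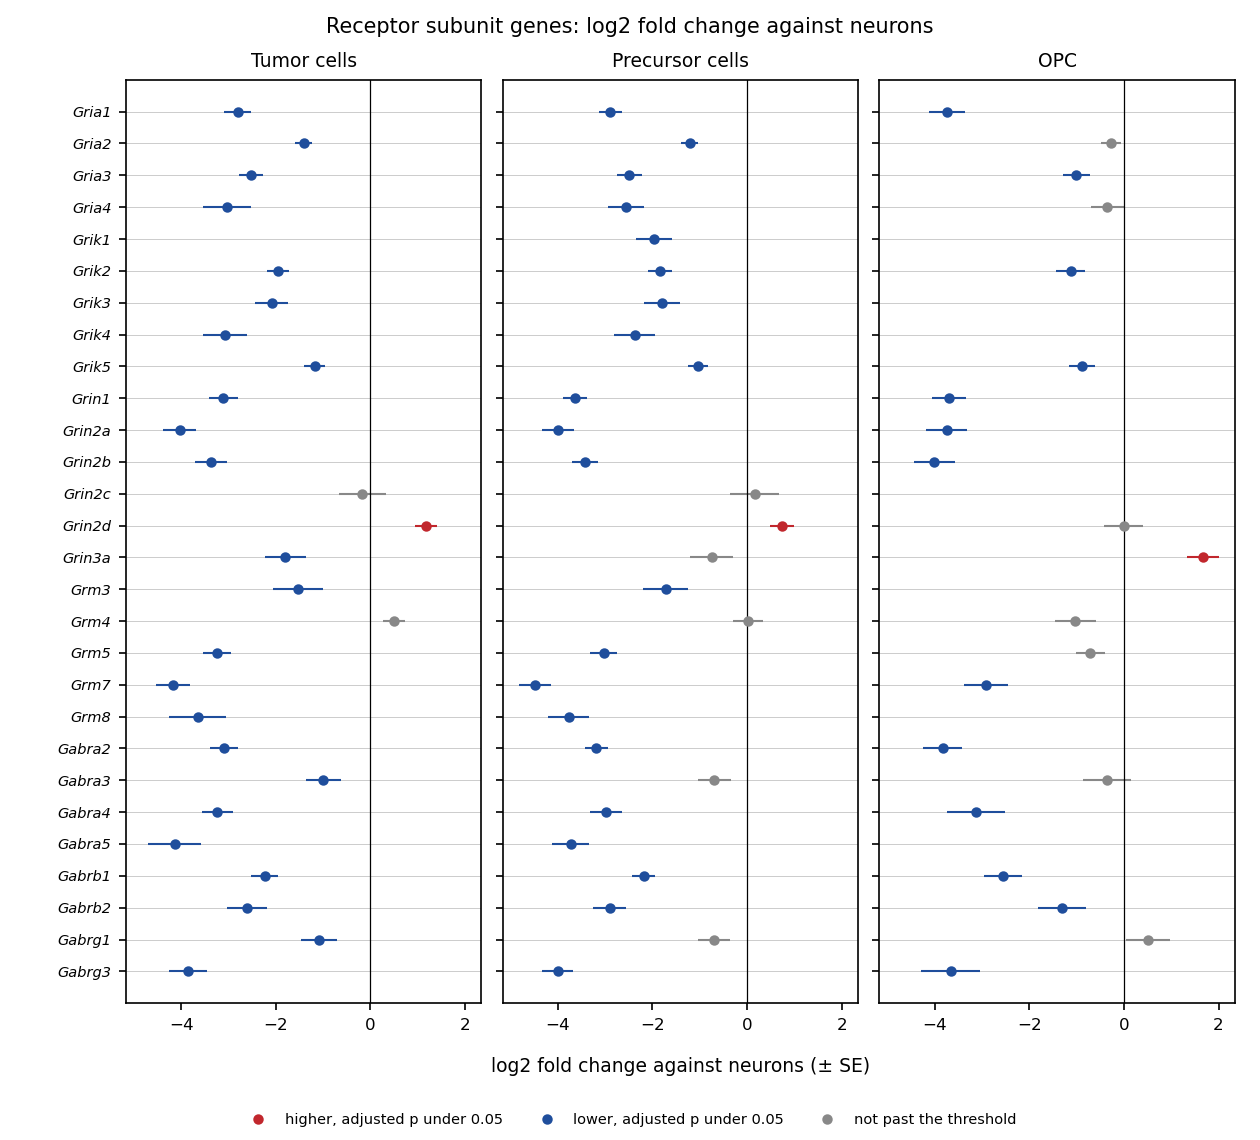
Log2 fold change of tested subunit genes in tumor cells, precursors and OPCs against neurons of the same tumor mice; points are estimates, bars are SE and color marks adjusted p under 0.05. Most genes lie left of 0, with Grin2d to the right in tumor cells (1.18) and precursors (0.74) and Grin3a to the right in OPCs (1.67).

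Neurons were then compared between the tumor brains and the controls, 4 mice against 4. Of 35 subunits tested, 4 were higher, 5 were lower and 26 did not pass; over 15239 genes, 8.48% were higher and 8.55% lower. The median was -0.06 over the subunits and 0.02 over all genes. The makeup of the neurons differed between the mice: 525 to 684 glutamatergic and 463 to 769 spiny neurons were gated in each control, and 119, 76, 34 and 1 glutamatergic and 48, 7, 49 and 45 spiny neurons in tumor mice 1, 2, 3 and 5. Malat1, a nuclear RNA, made up 8.83% to 10.5% of the UMIs of control neurons and 4.65% to 6.54% in those tumor mice. The part of the makeup and of the Malat1 share in the calls below was not tested beyond the alternatives.
Grin2d was the subunit with the smallest p-value. Control neurons had 10.1, 10.8, 9.43 and 8.89 CPM, and neurons of tumor mice 1, 2, 3 and 5 had 26.7, 32.2, 33.5 and 40.5 CPM. The groups did not overlap (1.61 ± 0.17, adjusted p = 0.000214), and the call was lost only when spiny neurons alone were tested. Grm4 had 13.6, 16.7, 14.4 and 12.8 CPM in control neurons and 16, 56.1, 74.1 and 55.5 CPM in tumor-brain neurons (1.60 ± 0.35, adjusted p = 0.00990). Mouse 1 lay within the control range and the other 3 above it. Both genes were also more abundant in the free RNA of the tumor brains, where Grin2d had 14.3 to 75.0 CPM against 5.97 to 9.78 CPM in controls and Grm4 had 12.5 to 90.1 against 10.5 to 13.5 CPM. In mice 2, 3 and 5 the free RNA held 47.8, 38.6 and 42.0 CPM of Grin2d, more than the neurons of the same mouse. Mouse 1, at 14.3 CPM, had less than its neurons. For Grm4 the free RNA was above the neurons only in mouse 2, at 80.0 CPM. The part of this free RNA in the neuron values was not tested.

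The kainate subunits Grik5 and Grik4 were the other higher genes. Grik5 had 80.3, 89.7, 105 and 88.6 CPM in control neurons and 170, 132, 330 and 139 CPM in tumor-brain neurons, without overlap (0.97 ± 0.25, adjusted p = 0.0234). Its free RNA was 44.9 to 56.8 CPM in controls and 79.1 to 214 CPM in tumor brains. Grik4 had 15.2 to 17.4 CPM in controls and 48.6, 38.4, 14 and 25.6 CPM in tumor-brain neurons (1.00 ± 0.27, adjusted p = 0.0280), with mouse 3 below the controls.

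Among the lower genes in tumor-brain neurons were Grm5 (280 against 470 CPM, -0.86 ± 0.22, adjusted p = 0.0233), Grm3 (19.5 against 28.5 CPM, -0.75 ± 0.22, adjusted p = 0.0405), Gabrb2 (33.2 against 50.6 CPM, -0.74 ± 0.19, adjusted p = 0.0239) and Grm8 (23.1 against 33.6 CPM, -0.60 ± 0.17, adjusted p = 0.0310). Gabrb2 encodes the β2 subunit of the common synaptic GABA-A receptor. Gria2 had 2447, 2397, 2892 and 2730 CPM in control neurons, all above the 2063, 1457, 2108 and 1139 CPM of the tumor brains, and did not pass (-0.73 ± 0.26, adjusted p = 0.0794). Grin2a also lay lower without overlap and did not pass (-0.72 ± 0.25, adjusted p = 0.0704). None of the 9 calls was kept in all 17 alternatives. With 1 control mouse left out, whichever it was, 2 or 3 genes were called, all higher and none lower, and with the replicate block 3 were higher and 0 lower. The 10 general neuron markers summed to 11540 to 12463 CPM in control neurons and 2165 to 11423 CPM in neurons of all 5 tumor mice, and their part in these differences was not tested.

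Of the 54 related genes in neurons, 2 were higher and 4 lower, which is no larger a share than over all genes. Slc1a3 (0.68 ± 0.20) and Shank3, a postsynaptic scaffold (0.56 ± 0.17), were higher. Cacng8, an AMPA receptor partner (-1.43 ± 0.34), Dlg2, a scaffold (-0.82 ± 0.22), Slc12a5 (-0.81 ± 0.20) and Slc12a2, the chloride importer NKCC1 (-0.50 ± 0.16), were lower. The adjusted p was 0.0172 for Slc12a5 and 0.0492 for Slc12a2.

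**Figure D4:**
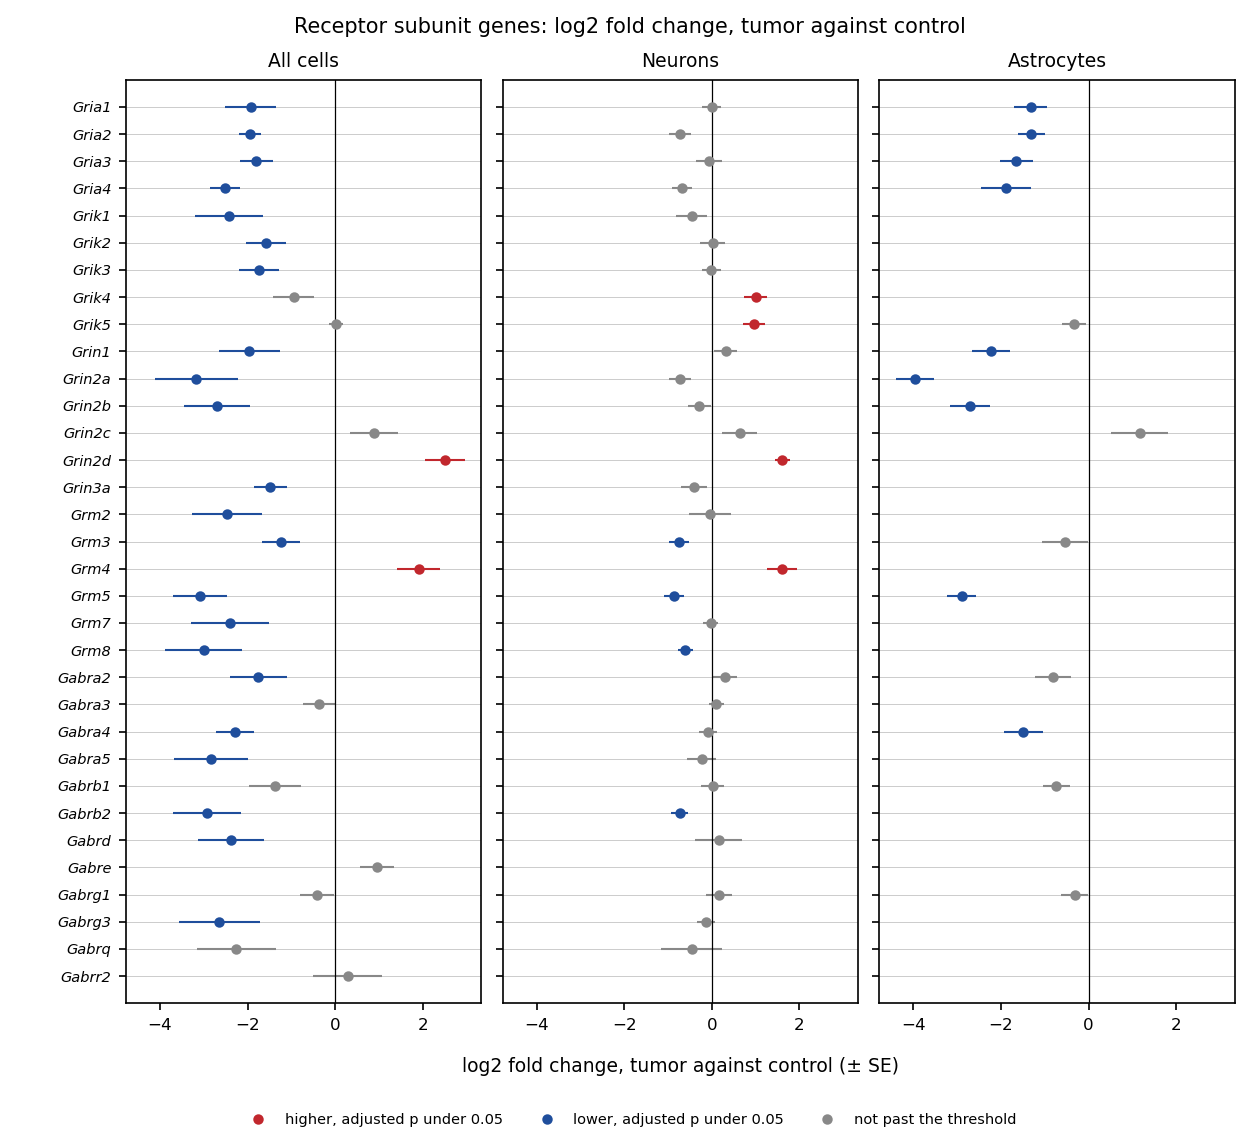
Log2 fold change of tested subunit genes between tumor and control brains, over all cells, in neurons and in astrocytes; points are estimates, bars are SE and color marks adjusted p under 0.05. Over all cells most genes lie far to the left, whereas in neurons most lie near 0.

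Summed over all kept cells of a mouse, the subunits were mostly lower in the tumor brains. Of 37 tested, 26 were lower, 2 were higher and 9 did not pass, where 29.4% of the 17594 genes tested were lower and 32.3% higher. The median was -1.94 over the subunits and 0.04 over all genes. In such sums fewer neurons and less RNA per neuron cannot be told apart, and neurons made up 17725 of 19568 control cells and 1586 of 15745 tumor-brain cells. Grin2a (-3.17 ± 0.95), Grm5 (-3.08 ± 0.62) and Grm8 (-3.00 ± 0.88) were among the lower genes, with the Grin2a call lost in 1 of 15 alternatives. Gria2 had a mean of 2443 ± 199 CPM (SD, n = 4) in controls and 555 ± 244 CPM (SD, n = 5) in tumor brains (-1.94 ± 0.26, adjusted p = 0.000334).

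The 2 higher genes were Grin2d, with 9.36 ± 0.78 CPM (SD, n = 4) in controls and 42.3 ± 21.3 CPM (SD, n = 5) in tumor brains (2.51 ± 0.46, adjusted p = 0.00154), and Grm4, with 14.1 ± 1.46 and 41.6 ± 21.8 CPM (1.91 ± 0.49, adjusted p = 0.00788). Both calls were kept in all 15 alternatives. Grik5 had 86.5 CPM in controls and 75.0 CPM in tumor brains (0.02 ± 0.16, adjusted p = 0.904). The others without a call were Gabrb1 (-1.38 ± 0.59), Gabrq (-2.25 ± 0.90), Grik4 (-0.95 ± 0.46), Gabrg1 (-0.42 ± 0.39), Gabra3 (-0.37 ± 0.38), Gabrr2 (0.29 ± 0.78), Grin2c (0.89 ± 0.56) and Gabre (0.95 ± 0.39). Gabrp, Gabrr3, Gabra6, Grm6, Gabrr1 and Grin3b had 1 to 62 UMIs each over all 9 mice and were not tested. Gabra6 marks cerebellar granule cells, and it had 6 UMIs.

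Astrocytes gave the third comparison between the groups, with 219 control and 760 tumor-brain cells. Of 18 subunits tested, 12 were lower and 6 did not pass; of 4694 genes, 18.2% were lower and 16.5% higher. The median was -1.57 over the subunits and 0.02 over all genes. The lower genes included Grin2a (165 to 8.82 CPM, -3.97 ± 0.44, adjusted p = 2.72e-05), Grm5 (-2.90), Grin2b (-2.70), Grin1 (-2.22), Gria4 (-1.89), Gria3 (-1.65), Gabra4 (-1.49), Gria1 (-1.32) and Gria2 (-1.30). The Gria4 call was lost in 4 of 13 alternatives, and those of Gria1 and Gabra4 in 1 each. The sum of the 10 neuron markers in the same astrocytes was 3863 to 4751 CPM in controls and 105 to 1064 CPM in tumor brains. Grin2a had 176 to 213 CPM in the free RNA of controls, above the 165 CPM of their astrocytes, and 7.56 to 109 CPM in that of tumor brains. The NMDA genes summed to 558 to 757 CPM in control astrocytes, 642 to 740 CPM in control microglia and 777 to 806 CPM in control free RNA. The part of free RNA and of the neuron markers in the result was not tested.

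Of the subunits without a call in astrocytes, Grm3 had 64.4 CPM in control astrocytes and 48.7 CPM in those of tumor brains (-0.54 ± 0.53, adjusted p = 0.457), Gabrg1 had 110 and 81.7 CPM (-0.32 ± 0.30, adjusted p = 0.435), and Gabrb1 had 363 and 209 CPM (-0.74 ± 0.30, adjusted p = 0.0710). Grin2c had 57.2, 56.6, 48.6 and 39.3 CPM in controls and 67.1, 75.1, 345, 13.1 and 50.1 CPM in tumor brains (1.17 ± 0.65, adjusted p = 0.177). Mouse 3 stood far above the other tumor mice, which lay on both sides of the controls.

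The control neurons also allowed a comparison of neuron types, spiny neurons of the striatum against glutamatergic neurons of the same 4 mice. Each type needed only 2 detected markers of its own and no excess over free RNA. The part of free RNA in this split was not tested. Of 34 subunits tested, 9 were higher in spiny neurons, 9 were lower and 16 did not pass, whereas of 12204 genes 6.56% were higher and 7.55% lower. The median was -0.02 over the subunits and 0.01 over all genes. Among the higher were Grm4 (0.67), Grik2 (0.64 ± 0.07, 171 against 108 CPM, adjusted p = 4.15e-16), Gabrg1 (0.62), Gabrg3 (0.57), Gabrd (0.46), Grik1 (0.40), Grm5 (0.33) and Gabra4 (0.30). Gabrd and Gabra4 encode the δ and α4 subunits of receptors that lie outside synapses. Among the lower were Grm2 (-0.92), Grik4 (-0.85), Gria3 (-0.44), Grin2a (-0.42), Grm8 (-0.39), Gria2 (-0.35 ± 0.03, adjusted p = 1.17e-18), Gria4 (-0.22) and Gabrb1 (-0.18). With DESeq2, 7 of the 18 calls remained, among them Grik2, Grm5 and Gabrg3, higher, and Gria2, Gria3 and Grin2a, lower. These 6 were also kept in each of the 10 alternatives, whereas Grik1 was lost in 9 (0.04 to 0.51, adjusted p up to 0.924), Gabrb1 in 6, Grm4 and Grm8 in 4 each, Gabrd, Gabrg1, Gabra4 and Gria4 in 3 each, and Grm2 and Grik4 in 1 each. Gabra4 and Gabrb1 overlap on opposite strands of chromosome 5, and whether strand was used in counting is not given in the sources used here, so sense and antisense reads cannot be told apart for them or for Gabra5.

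Finally, the makeup of the AMPA and NMDA families was followed as shares of UMIs, which need no scaling between mice. Gria2 made up 70.8% to 73.5% of AMPA UMIs in control neurons, and 79.4%, 69.6%, 85.9%, 79.4% and 85.4% in tumor cells of mice 1 to 5. In neurons of these mice the shares were 65.3%, 64.6%, 62.2%, 86.8% and 65.0%, so 4 of 5 mice had a higher Gria2 share in tumor cells (11.1 percentage points, exact sign-flip permutation test, p = 0.188, adjusted p = 0.263 over the 7 shares compared). The exception was mouse 4, with 38 AMPA UMIs in its 8 neurons, and without it the difference was 15.8 points. Grin2b made up 78.2% of Grin2a and Grin2b UMIs in tumor cells and 69.8% in neurons, and was higher in 4 of 4 mice (exact sign-flip permutation test, p = 0.125, the smallest that 4 mice allow; adjusted p = 0.263). Between the groups, the Grin2b share of neurons was 69.8% ± 6.63 (SD, n = 4) in tumor brains and 63.2% ± 0.861 (SD, n = 4) in controls, a difference of 6.58 percentage points (exact permutation test, two-sided, p = 0.143, adjusted p = 0.263). The Gria2 share of neurons differed by -3.84 points, 68.8% ± 10.2 (SD, n = 5) against 72.6% ± 1.26 (SD, n = 4) (exact permutation test, p = 0.476, adjusted p = 0.476), and by -8.35 points without tumor replicate 4. None of the 7 shares passed after adjustment, and none of them could. For the 5 within the tumor mice the smallest possible p is 0.0625 with 5 mice and 0.125 with 4. For neurons between the groups it is 0.0286 for the Grin2b share and 0.0159 for the Gria2 share. These are also too large to pass after adjustment over the 7 shares. The lack of a pass therefore does not show whether the shares differ.

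**Figure D5:**
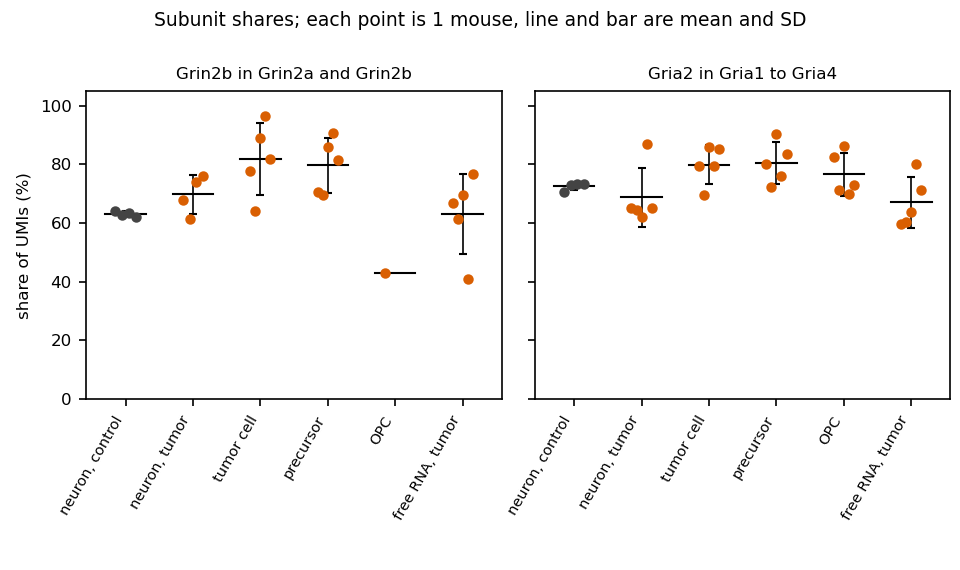
Share of UMIs (%) of Grin2b in Grin2a plus Grin2b and of Gria2 in Gria1 to Gria4, by class; each point is 1 mouse, with mean and SD as line and bar. The Gria2 share is 69.6% to 85.9% in tumor cells and 70.8% to 73.5% in control neurons.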

How the data were processed

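Brains of 5 mice with an EP ZFTA-RELA tumor and of 4 control mice, profiled by droplet 5′ RNA-seq, were analysed from the matrices of UMI counts that the authors deposited, 1 per mouse. Per the file headers the counts were made with Cell Ranger 6.1.2, while the submitters' processing notes name Cell Ranger 7, Scanpy 1.8.2 and the mm10 build, to which transgene sequences had been added. Replicates were not pooled. The feature list of control replicate 4 named 32287 of its 32289 rows and 80865 barcodes for 80887 columns, so its features were read by the other libraries' list and its barcodes were not used.

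The 10000 barcodes with the most UMIs in each library (9001 where fewer were deposited) were kept if they had 200 to 6000 genes. They also had to fall in the component of a 2-component mixture with the lower mean mitochondrial percentage. The likeliest doublets (0.8% per 1000 barcodes) were removed. The removed component averaged 3.68% and 4.84% mitochondrial UMIs in tumor replicates 4 and 5. The kept part of the controls averaged 7.59% to 8.72%. In those tumor replicates a limit of 10% kept 9178 and 9139 cells, against 5114 and 3638. Whether the removed barcodes were damaged was not tested. Cells were gated with marker lists. A gate needed at least 3 detected markers (4 for neurons). Classes other than neurons and precursors also needed a marker sum at least 3 times that expected from free RNA. Among the classes other than neurons, the one with the largest share of its markers was taken. A cell past the neuron gate became a neuron if it passed no other gate. It also did if its neuron share exceeded that of a leading precursor class. Neuron types were gated among neurons with at least 2 markers and at least 2 times the marker share of the next type. No excess over free RNA was asked for them. This scoring rule was set after the data were seen. UMIs were summed per mouse and class with at least 20 cells. Tests used edgeR 4.0.16 (TMM, filterByExpr, quasi-likelihood F test, Benjamini-Hochberg over all genes tested), with the mouse as a block where classes of the same mice were compared, since both classes then come from 1 animal. SEs are the log2 fold change divided by the square root of F. The fit was tested on simulated data. Shares used exact permutation tests. Each replicate is 1 mouse; p-values measure the spread between mice and cover no step done once for all. Kept UMIs were 5900868 to 37615459 per library, and their number limits the precision of rare genes.

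The member genes, related genes and comparisons were chosen with earlier results of these data known. Members past the threshold could be named in order of their fold change, and at most the 5 related genes with the smallest p in each direction. The values of 4 members, and 1 planned subunit share, are not reported here; the 4 enter the counts, medians and family sums. Promoters are from RefSeq and carry no fitted value. Alternatives were DESeq2 1.42.0, no filter on low counts, a mitochondrial limit of 10%, no doublet removal, stricter gates, the replicate block and leaving out each mouse. Neuron types taken alone, and library totals in place of TMM, were added after seeing the data. Libraries of a pair shared at most 10 cell barcodes, with control replicate 4 left out because its barcodes were not used.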

Additional observations from a re-analysis of the deposited data

Results flagged for a closer look

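In each group of 4 or 5 mice, the highest and lowest values of the levels and shares named above were checked for a gap to the nearest mouse that was large against the range of the group (Dixon's test at 95%). Of 66 groups checked, 4 had such a mouse, and chance gives about 1 in 20. Grm7 in tumor cells was 18.8 CPM in tumor mouse 1 and 0.169 to 4.47 CPM in the other 4, and that mouse also had the most Grm7 in microglia, 14 CPM. There 22.9% of the tumor cells passed the neuron gate, and without the tumor cells gated as neurons, oligodendrocytes, ependymal, choroid plexus, immune, blood, vascular or fibroblast cells Grm7 was 3.98 CPM in mouse 1 and 0 to 3.01 CPM in the others. Grin2c in astrocytes was 345 CPM in tumor mouse 3, against 13.1 to 75.1 CPM in the others. The Gria2 share in neurons was 86.8% in tumor mouse 4, which rests on 8 neurons and 38 UMIs. Control mouse 1 had a Gria2 share of 70.8% in neurons, below the 73.1% to 73.5% of the other controls. No member was called in opposite directions in neurons and astrocytes.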

How the results depend on the processing

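Over the subunits called in the 7 comparisons, 1743 values were recomputed under alternatives; 1551 kept their direction and call, 191 lost the call and 1 reversed, Grm3 in spiny neurons alone (0.43, adjusted p = 0.680). Neurons of tumor against control brains depended most on the processing: 9 subunits were called, against 3 with the replicate block, 4 in glutamatergic neurons alone, 3 in spiny neurons alone and 2 to 12 with 1 mouse left out, with 2 each without control replicate 1, 2 or 4 and 3 without control replicate 3. The 12 calls in astrocytes became 21 with no filter on low counts, and the 18 calls of spiny against glutamatergic neurons became 7 with DESeq2. Leaving out 1 mouse gave 19 to 32 calls over all cells (28 with all mice, 19 without tumor replicate 2), 9 to 13 in astrocytes, 27 to 28 in tumor cells, 25 to 28 in precursors, 15 to 18 in OPCs and 13 to 17 in spiny neurons. Same-numbered tumor and control mice did not deviate together (correlations of 0.050, 0.025, -0.003 and 0.037), so the numbers only name them; with the replicate block 23 subunits were called over all cells, 3 in neurons and 10 in astrocytes. Within mice, the fits without the block of mouse gave 27 calls in tumor cells, 25 in precursors, 16 in OPCs and 13 in spiny neurons. Without the filter the median of all genes moved to -0.53 in OPCs, -0.22 in neurons, -0.15 over all cells and 0.15 in astrocytes, and to -0.19 over all cells with library totals in place of TMM. The cause of these changes was not tested. Tumor replicates 1 and 3 gave 83 and 99 tumor cells, which limits rare subunits there.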
